A study of Mus musculus with 17 samples.

Results

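The genes described here are 47 solute carriers that move amino acids, organic anions and cations, carboxylates and peptides across cell membranes. They were chosen by name, as the rows of the raw count table whose mouse Ensembl ID maps to their symbols, and all 47 were found among 53379 genes. Of these, 46 had enough reads to be tested. Slco1a1, an organic anion carrier known to be higher in male mouse kidney, did not, with 6 reads over the 5 wild type libraries, 23 over the 5 saline libraries and 1 over the 7 atrasentan libraries. Messenger RNA was measured in glomeruli-enriched kidney cortex of BTBR mice, 1 library per mouse, killed at 24 weeks of age. For the 5 wild type mice the labels give no treatment. The mice of the other 2 groups were ob/ob, lacking leptin through a Lep mutation that makes BTBR mice obese and diabetic, and received saline (n = 5) or atrasentan (n = 7) in the drinking water for 6 weeks from the age of 18 weeks. Atrasentan blocks the endothelin A receptor and was dosed at 5 mg per kg body weight per day. The wild type group differs from the atrasentan group in both genotype and treatment.

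Reabsorption of amino acids and secretion of organic ions take place mainly in the proximal tubule, the segment that follows the glomerulus. Carriers on the apical side face the filtrate and take solutes up from it or release drugs and toxins into it, and carriers on the basolateral side face the blood. Amino acids enter the cell apically with sodium or in exchange for other amino acids and leave basolaterally. Many organic anions and cations, such as drugs, enter from the blood and leave apically. Some of the carriers are also used by other kidney cells, and how much of their RNA came from which cells was not measured in these preparations. By the known place of the protein, 21 of the carriers were listed as apical, 13 as basolateral and 13 were not assigned to a side.

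Levels are given as CPM, the reads of a gene relative to all gene reads of its library with library size scaled by its TMM factor, and changes as log2 fold changes with their standard error (SE). A gene counted as called where the adjusted p was under 0.05 (edgeR quasi-likelihood test, Benjamini-Hochberg over the 17766 genes tested). Gene reads per library ran from 29161833 to 52528747, and the carriers together took 0.184% to 0.664% of them. Podocyte, glomerular endothelium and mesangium markers were present in every group. Medians of the summed level of the podocyte markers were 9977 CPM in wild type, 5110 CPM in saline and 3914 CPM in atrasentan libraries. In the same order they were 11510, 11455 and 14348 CPM for endothelium and 5987, 6171 and 11211 CPM for mesangium. Non-transporter markers of the proximal tubule were present too: the mean log2 CPM of 18 such markers was 5.99 to 6.81 in wild type libraries, 6.50 to 8.60 in saline libraries and 4.06 to 6.42 in atrasentan libraries. Saline libraries 1 (8.60) and 3 (8.54) stood apart from the other 3 saline libraries, whose highest value was 7.57. In the atrasentan group library 6 was the highest (6.42) and library 7 the lowest (4.06). Fewer tubule cells in a preparation and less RNA of a gene per cell cannot be told apart in these bulk libraries.

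Several of the carriers lie side by side in the genome, and the sequence before 3 of the neighbours is shown because their levels are described together. On chromosome 19 of build GRCm38, Slc22a19, Slc22a28, Slc22a29, Slc22a30, Slc22a8, Slc22a6 and Slc3a2 follow each other between positions 7673061 and 8723369, and the gap between Slc22a8 and Slc22a6 is 6.20 kb. Slc6a18 and Slc6a19 are 1.72 kb apart on chromosome 13, and Slc17a3 and Slc17a1 on the same chromosome are 7.03 kb apart. RefSeq start sites (GRCm38.p6) gave the 250 bases before the start for 37 of the 47 carriers. They were searched on both strands for CAAAGTCCA, a motif of the tubule transcription factor HNF4. CAAAGTCCA was in 1 of the 37, that of Slc3a1, and in 0.384% of all 32851 RefSeq windows of this length. The windows of the paired organic anion carriers Slc22a6 (chr19:8617746-8617995, plus strand) and Slc22a8 (chr19:8592932-8593181, plus strand), of Slc3a1 (chr17:85028097-85028346, plus strand) and of Slc22a19 (chr19:7711311-7711560, minus strand) are printed 5′ to 3′, with the matched letters in capitals. In the GENCODE annotation the Slc22a8 window overlaps an exon of Slc22a8 itself, and the other 3 windows overlap no exon. A match describes these letters and is not evidence of binding.

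Slc22a6: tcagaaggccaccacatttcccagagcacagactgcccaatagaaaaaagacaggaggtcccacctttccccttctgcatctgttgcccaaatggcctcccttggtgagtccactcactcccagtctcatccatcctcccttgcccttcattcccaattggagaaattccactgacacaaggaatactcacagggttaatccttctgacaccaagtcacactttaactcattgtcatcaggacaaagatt

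Slc22a8: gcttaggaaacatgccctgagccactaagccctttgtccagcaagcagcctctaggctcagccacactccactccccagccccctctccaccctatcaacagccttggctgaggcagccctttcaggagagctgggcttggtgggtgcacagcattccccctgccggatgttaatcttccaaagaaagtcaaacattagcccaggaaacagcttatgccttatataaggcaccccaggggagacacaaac

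Slc3a1: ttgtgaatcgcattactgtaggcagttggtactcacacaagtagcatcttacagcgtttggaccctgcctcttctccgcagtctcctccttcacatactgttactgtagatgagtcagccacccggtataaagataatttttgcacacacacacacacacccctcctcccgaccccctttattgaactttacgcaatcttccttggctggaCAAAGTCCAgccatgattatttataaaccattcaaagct

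Slc22a19: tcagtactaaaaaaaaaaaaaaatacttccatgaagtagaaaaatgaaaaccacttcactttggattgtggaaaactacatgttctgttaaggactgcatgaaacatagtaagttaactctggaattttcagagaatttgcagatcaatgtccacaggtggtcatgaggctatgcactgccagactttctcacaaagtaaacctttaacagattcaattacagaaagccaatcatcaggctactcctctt

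Of the 4 windows, that of Slc3a1 held CAAAGTCCA, and the letters were not in those of Slc22a6, Slc22a8 and Slc22a19.

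Per length (CPM per kilobase of exon, RPKM), the most abundant carrier in wild type libraries was Slc3a2, the heavy chain that pairs with several amino acid exchangers of the plasma membrane, at 83.7 ± 6.85 RPKM (mean ± SD, n = 5). Slco2a1, the prostaglandin carrier, followed at 41.7 ± 8.16 RPKM. Slc22a18, an orphan carrier of the organic cation family, was at 28.2 ± 8.60 and Slc7a8, a basolateral exchanger of neutral amino acids, at 28.2 ± 5.30, values that do not differ beyond their spread. With the length of the longest transcript in place of all exons, Slco2a1 was at 79.3 RPKM and the anion carrier Slco3a1 moved from 19.0 to 35.1 RPKM. In saline libraries the basolateral anion carriers Slc22a8 (75.5 ± 46.99 RPKM) and Slc22a6 (63.7 ± 48.3 RPKM, against 11.6 ± 5.16 in wild type) stood among the 4 most abundant members. By the longest transcript Slc22a6 was also at 63.7 RPKM but lay behind Slc3a2, Slco2a1, Slc22a18, Slc22a8, Slc13a1 and Slc13a3 (133, 99.7, 97.6, 85.7, 80.5 and 74.2 RPKM). With atrasentan the leading carriers were Slc3a2 (86.2 ± 9.68 RPKM, n = 7), Slco2a1 (84.6 ± 21.6 RPKM) and Slco3a1 (38.05 ± 5.66 RPKM).

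**Figure D1:**
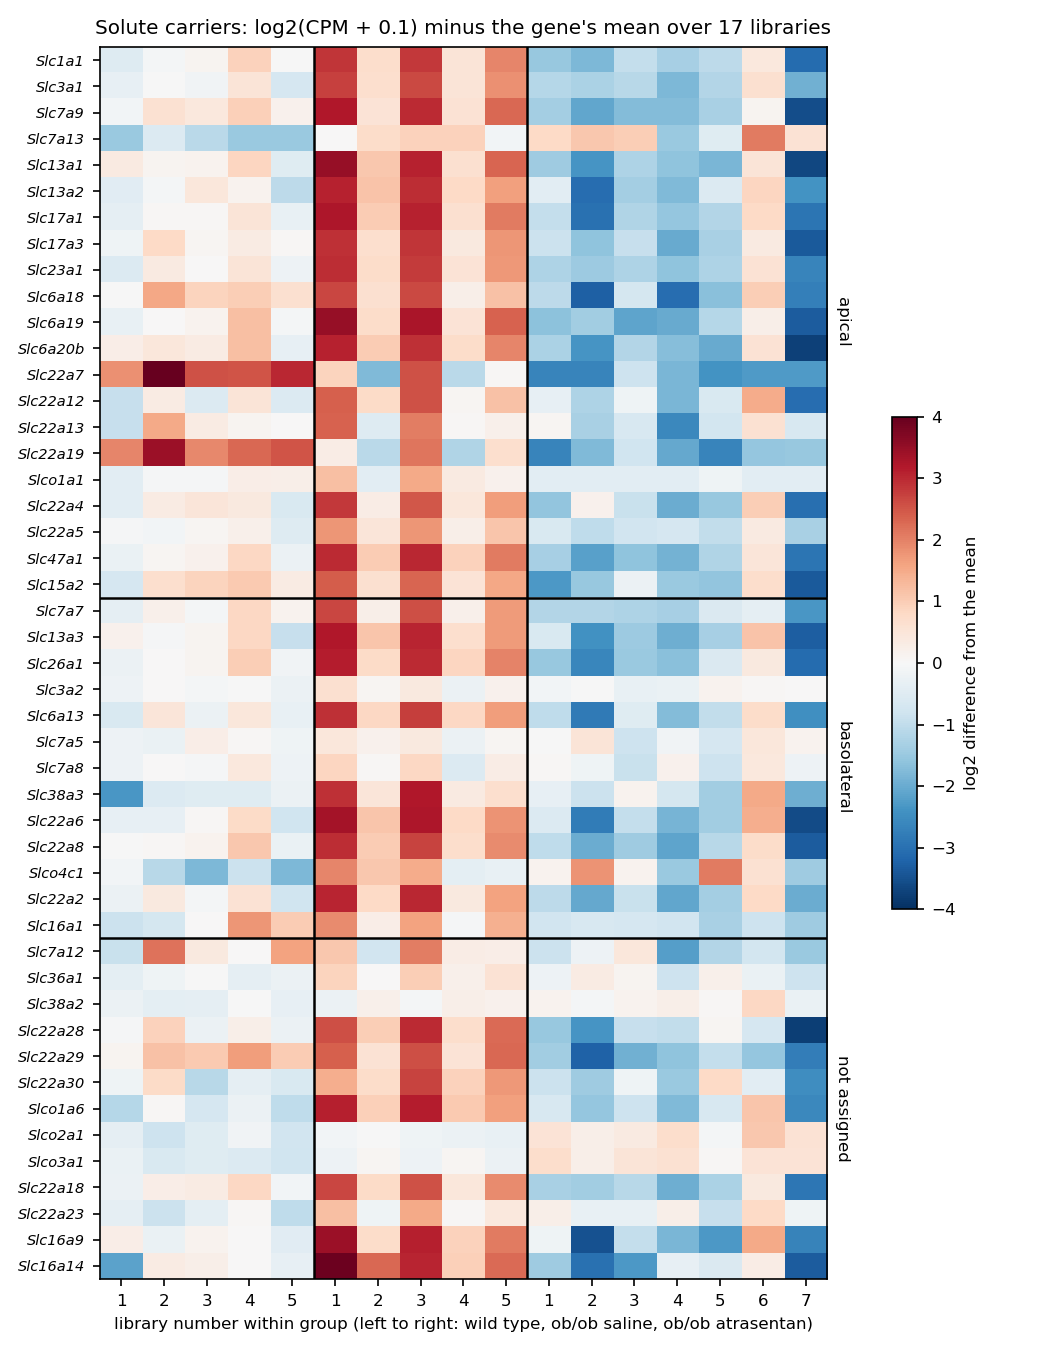
Level of each of the 47 carriers (rows, by side of the cell) in the 17 libraries (columns), as log2(CPM + 0.1) minus the mean of the gene over all libraries; red is above and blue below that mean. Most rows are red in saline libraries 1 and 3 and blue in atrasentan libraries other than library 6. The mean log2 CPM of the carriers was 3.74 in atrasentan library 6, the highest of its group. Slc22a7 and Slc22a19 are highest in wild type libraries and Slco2a1 and Slco3a1 in atrasentan libraries.

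Saline-treated ob/ob mice were compared with wild type mice for the RNA of the carriers in glomeruli-enriched cortex, without the drug. Of the 46 carriers tested, 15 rose, none fell and 31 were not called. Of all genes tested, 5.12% were called, 3.21% higher and 1.91% lower. The carriers had a median log2 fold change of 1.84, against 0.01 for all genes tested, and 43 of the 46 values were positive. In 15 carriers every saline library lay above every wild type library, a pattern found in 3.46% of all genes tested. These are not the same 15 as those called: Slc22a6 did not overlap but was not called, and Slc6a19 was called but overlapped. In none did every saline library lie below (3.96% of all genes). By side, 8 of 20 apical carriers, 4 of 13 basolateral carriers and 3 of 13 without an assigned side rose. By substrate, the counts were 5 of 7 for carriers of dicarboxylates, sulfate, phosphate-family anions and vitamin C, 4 of 6 for organic cations and zwitterions, 2 of 5 for acidic and dibasic amino acids and cystine, 1 of 4 for peptides and monocarboxylates, 2 of 11 for neutral and imino amino acids and 1 of 13 for organic anions. Differences between these groups of carriers were not tested.

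These calls rested on few libraries. Without saline libraries 1 and 3 together no carrier was called, 12 had an unadjusted p under 0.05 (edgeR), and the median log2 fold change was 0.90. Leaving out single libraries gave between 0 and 27 calls. None of the 46 was called (edgeR) without saline library 1 (36 with an unadjusted p under 0.05), wild type library 1 (35), wild type library 3 (36) or wild type library 5 (35). One was called without wild type library 2 (Slco1a6, which rose) and 1 without saline library 3 (Slc22a7, which fell). Without saline library 5, 5 were called. DESeq2 on the same counts called 30, and the edgeR fit of these 2 groups alone also called 30. Proximal tubule markers moved with the carriers: 8 of the 18 rose, with medians of their summed level at 3703 CPM in wild type and 8550 CPM in saline libraries, and 1 fell. These sums include Cyp4b1, whose mean was 1322 CPM in wild type, 1318 CPM with saline and 1390.25 CPM with atrasentan, so they move less than the other markers. The 1 that fell was Kap, an androgen-regulated gene of this segment, at a mean of 68.1 CPM in wild type and 8.52 CPM with saline (edgeR adjusted p = 0.0386). Markers of the distal tubule (2 of 5) and collecting duct (2 of 7) rose too, and 7 of 12 podocyte markers fell. The part of these cell types in the values of the carriers was not tested.

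Among apical carriers, Slc6a19, the main sodium-dependent carrier of neutral amino acids from the filtrate, was at 27.98, 34.9, 37.3, 78.6 and 32.2 CPM in wild type libraries 1 to 5. In saline libraries 1 to 5 it was at 379.7, 56.5, 331, 50.5 and 177 CPM. Saline libraries 1, 3 and 5 lay above all wild type libraries, whereas 2 and 4 lay within their range. The log2 fold change was 2.24 ± 0.62 (edgeR adjusted p = 0.0453). Slc3a1, the heavy chain of the apical exchanger that recovers cystine and dibasic amino acids, was at 21.1, 26.6, 24.2, 38.1 and 16.6 CPM in wild type and at 178, 42.9, 167, 38.5 and 94.1 CPM with saline. Every saline library exceeded every wild type library, by a log2 fold change of 2.04 ± 0.50 (edgeR adjusted p = 0.0297). Its light chain Slc7a9 was at 17.8, 29.6, 25.6, 37.6 and 21.8 CPM in wild type and at 179, 27.9, 152, 28.9 and 94.1 CPM with saline, with saline libraries 2 and 4 inside the wild type range, and its log2 fold change of 1.86 ± 0.56 was not called (edgeR adjusted p = 0.0611). Mutation of either chain is a known cause of cystinuria in humans.

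Slc47a1, which releases organic cations into the filtrate in exchange for protons, was at 25.8, 33.0, 35.2, 55.3 and 26.2 CPM in wild type. With saline it was at 247, 63.0, 253, 59.3 and 132 CPM. The groups did not overlap, and the log2 fold change was 2.10 ± 0.55 (edgeR adjusted p = 0.0379). Slc13a1, the apical sodium sulfate carrier, was at 57.6, 48.0, 48.8, 81.8 and 31.8 CPM in wild type and at 503, 94.6, 374, 68.96 and 226 CPM with saline, and rose by 2.24 ± 0.63 (edgeR adjusted p = 0.0488).

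Slc13a2, which takes citrate and other dicarboxylates from the filtrate, was at 4.19, 5.37, 7.93, 6.33 and 2.74 CPM in wild type and at 48.9, 12.9, 45.4, 9.96 and 17.9 CPM with saline. It rose by 2.35 ± 0.64 (edgeR adjusted p = 0.0427). Slc17a1, an apical phosphate-family carrier that also exports urate, was at 19.3, 25.3, 25.7, 35.7 and 20.2 CPM in wild type and at 231, 50.1, 211, 38.3 and 104 CPM with saline, and rose by 2.33 ± 0.63 (edgeR adjusted p = 0.0421). Slc17a1 and Slc13a2 did not overlap between the groups, and Slc13a1 did. The other apical carriers that rose were Slc23a1, a vitamin C carrier, and Slc22a5, the carnitine carrier, with log2 fold changes of 2.01 and 1.26.

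On the basolateral side, Slc22a2, which takes organic cations from the blood, was at 8.62, 13.3, 9.55, 15.1 and 5.84 CPM in wild type and at 84.2, 17.6, 82.3, 13.3 and 30.9 CPM with saline. Saline library 4 lay within the wild type range, and the log2 fold change was 2.12 ± 0.60 (edgeR adjusted p = 0.0495). Slc38a3, a glutamine carrier used in ammonia production, rose by 2.84 ± 0.73 (0.288, 1.24, 1.30, 1.31 and 1.56 CPM in wild type, 14.6, 2.65, 17.8, 2.41 and 3.04 CPM with saline, adjusted p = 0.0361). Its groups did not overlap, and saline libraries 1 and 3 were far above the other 3. Slc26a1, a sulfate exchanger, and Slc7a7, the light chain that releases dibasic amino acids to the blood, also rose, by 2.07 ± 0.59 and 1.65 ± 0.45. The carriers that take organic anions from the blood did not pass. Slc22a6 was at 37.4, 37.7, 48.5, 80.4 and 27.1 CPM in wild type and at 476, 101, 447, 81.5 and 162 CPM with saline, a log2 fold change of 2.46 ± 0.77 (edgeR adjusted p = 0.0707). Its groups did not overlap. Slc22a8 was at 67.4, 70.8, 74.5, 145 and 56.6 CPM in wild type and at 523, 139, 447, 111 and 255 CPM with saline, with a log2 fold change of 1.83 ± 0.60 (edgeR adjusted p = 0.0796). Slc13a3, the basolateral dicarboxylate carrier whose substrates are exchanged for organic anions, was at 60.3, 52.3, 57.5, 96.2 and 28.2 CPM in wild type and at 489.8, 117, 440.4, 86.3 and 174 CPM with saline. Saline library 4 lay within the wild type range, and the log2 fold change was 2.15 ± 0.70 (edgeR adjusted p = 0.0788).

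Of the carriers without an assigned side, Slc16a14, an orphan of the monocarboxylate family, was at 0.997, 6.00, 5.63, 4.84 and 3.77 CPM in wild type and at 72.4, 23.8, 40.0, 9.36 and 23.2 CPM with saline. It rose by 2.99 ± 0.69 without overlap (edgeR adjusted p = 0.0242), the greatest log2 fold change among the 15 called. Slco1a6, an organic anion carrier of rodents, was at 6.56, 15.05, 8.98, 12.4 and 7.07 CPM in wild type and at 126, 28.4, 129, 29.7 and 45.6 CPM with saline. It rose by 2.84 ± 0.62, also without overlap (edgeR adjusted p = 0.0197). Slc22a23, an orphan of the organic ion family, rose by 1.23 ± 0.34.

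Atrasentan against saline in ob/ob mice compares the RNA of the carriers in these preparations after 6 weeks of endothelin A receptor blockade. The saline libraries are the same as in the comparison before. Of the 46 carriers, 37 fell, 2 rose and 7 were not called. Of all genes tested, 33.8% were called, 18.5% lower and 15.3% higher. The carriers had a median log2 fold change of -2.90, against -0.01 for all genes. In 15 carriers every atrasentan library lay below every saline library, a pattern found in 5.76% of all genes, and in none did every atrasentan library lie above (6.07% of all genes). By side, 19 of 20 apical carriers fell and the other, Slc7a13, was not called. On the basolateral side 9 of 13 fell, and of those without an assigned side 9 of 13 fell and 2 rose. All 7 carriers of dicarboxylates, sulfate, phosphate-family anions and vitamin C fell, as did all 4 of peptides and monocarboxylates, 5 of 6 of organic cations and zwitterions, 4 of 5 of acidic and dibasic amino acids and cystine, 10 of 13 of organic anions and 7 of 11 of neutral and imino amino acids.

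These calls depended less on single libraries: leaving out 1 at a time gave 34 to 42 calls. Without saline libraries 1 and 3 together, 25 fell and 2 rose, with a median log2 fold change of -1.93, and the calls of Slc22a6 (-1.86, edgeR adjusted p = 0.0837) and Slc22a7 (-2.21, adjusted p = 0.0936) were lost. Of the 18 proximal tubule markers 16 fell and none rose, with a median log2 fold change of -2.93 and a median summed level of 2259 CPM with atrasentan, Cyp4b1 included. Markers of other tubule segments fell too: 3 of 6 of the loop of Henle, 2 of 5 of the distal tubule and 2 of 7 of the collecting duct. Markers of glomerular endothelium (7 of 10), mesangium (5 of 8) and macrophages (6 of 7) rose, and 7 of 12 podocyte markers fell. The part of these cell types in the values of the carriers was not tested.

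**Figure D2:**
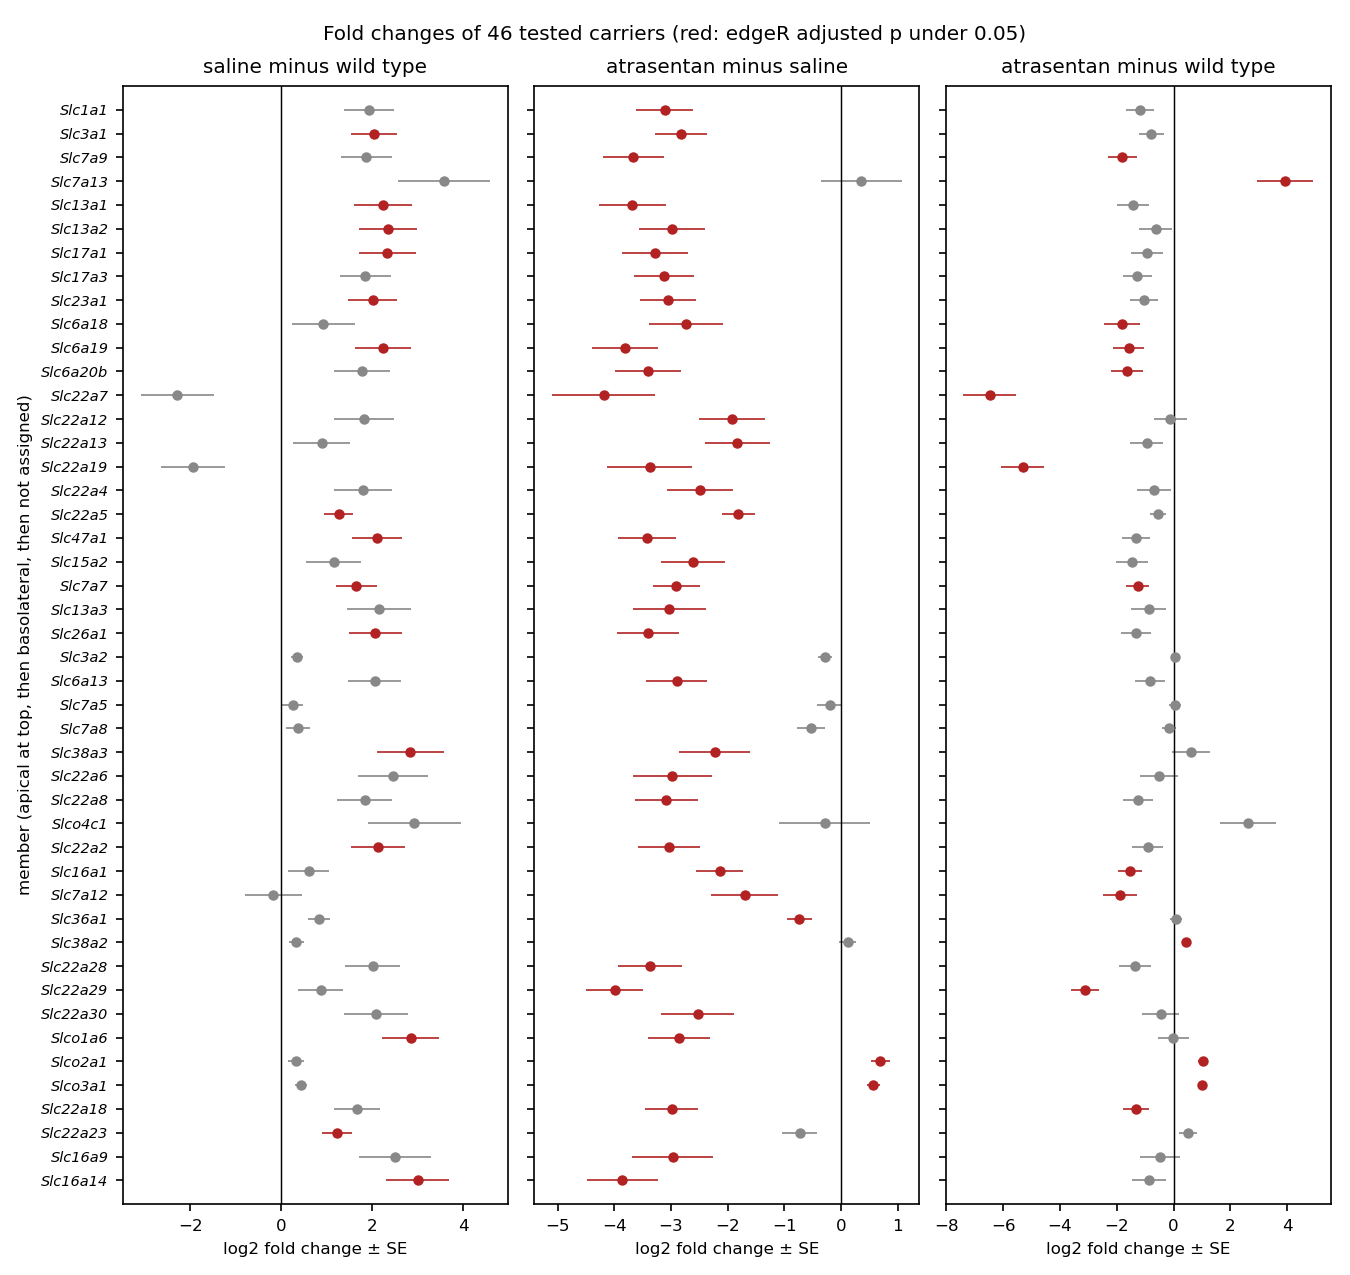
Log2 fold change and SE of the 46 tested carriers in the 3 comparisons, with the apical carriers at the top, the basolateral in the middle and those without an assigned side at the bottom; red marks an edgeR adjusted p under 0.05. Carriers called in the left panel lie to the right of 0 (15 of 15), and 37 of the 39 called in the middle panel lie to the left of it.

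Slc6a19 showed one of the greatest falls. With atrasentan its lowest, median and highest library were at 3.34, 10.9 and 40.2 CPM, all below the lowest saline library (50.5 CPM), and it fell by 3.82 ± 0.58 on the log2 scale (edgeR adjusted p = 0.000289). Slc7a9, at 1.54, 5.69 and 20.6 CPM, fell by 3.66 ± 0.53 without overlap (edgeR adjusted p = 0.000232). Its partner Slc3a1 was at 6.98, 11.8 and 41.6 CPM and fell by 2.82 ± 0.45 (edgeR adjusted p = 0.000376). Slc3a1 overlapped between the groups through atrasentan library 6. Slc13a1 was at 3.52, 14.6 and 63.8 CPM, below all saline libraries, and fell by 3.68 ± 0.59 (edgeR adjusted p = 0.000364). Slc16a14 was at 0.378, 1.72 and 5.87 CPM, also below all saline libraries, and fell by 3.86 ± 0.63 (edgeR adjusted p = 0.000396).

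RNA of the basolateral and the apical carrier of organic cations, Slc22a2 and Slc47a1, fell. Slc22a2 was at 2.32, 3.88 and 17.7 CPM (lowest, median and highest) and fell by 3.03 ± 0.55 on the log2 scale (edgeR adjusted p = 0.00077). In atrasentan library 6 Slc22a2 lay above saline libraries 2 and 4. Slc47a1 was at 4.04, 10.1 and 43.4 CPM, with no overlap with saline, and fell by 3.42 ± 0.51 (edgeR adjusted p = 0.000268). RNA of the organic anion uptake carriers Slc22a6 (3.84, 17.8 and 128 CPM) and Slc22a8 (6.63, 25.5 and 114 CPM) fell as well. Their log2 fold changes were -2.98 ± 0.70 and -3.08 ± 0.56 (edgeR adjusted p = 0.00402 and 0.00074). Atrasentan library 6 was the highest in both and lay above saline library 4, and for Slc22a6 also above saline library 2. Slc13a3, at 5.32, 19.7 and 119 CPM, fell by 3.03 ± 0.64 (edgeR adjusted p = 0.00211), with atrasentan library 6 above saline libraries 2 and 4. The apical urate carrier Slc22a12 fell by 1.93 ± 0.59 (edgeR adjusted p = 0.0180), with atrasentan library 6 (56.1 CPM) above saline libraries 2, 4 and 5 (34.3, 21.4 and 45.4 CPM).

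Of the carriers that fell, Slc36a1, a lysosomal and plasma membrane carrier of small neutral amino acids, had the least fall, 0.74 ± 0.22 on the log2 scale. Leaving aside the carriers whose own values are given, those that fell ranged from -3.41 (Slc6a20b) to -1.70 (Slc7a12). Slc22a29, an anion carrier of the chromosome 19 run, fell by 3.99 ± 0.50 and is described with its relatives. Slc22a28, Slc22a29 and Slc22a30 are relatives in 1 gene run, and a read that aligned to several places was counted for no gene. How alike their transcripts are was not measured, so reads of the 3 that were lost in this way are not known.

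Both carriers that rose belong to the organic anion transporting polypeptides. Slco2a1, which clears prostaglandins and is known from vascular endothelium, was at 618, 450.0, 572, 717 and 467 CPM in wild type and at 737, 792, 707, 672 and 642 CPM with saline. Its lowest, median and highest atrasentan libraries were at 761, 1152 and 1676 CPM. Only saline library 2 lay above the lowest atrasentan library, and the rise was 0.69 ± 0.16 on the log2 scale (edgeR adjusted p = 0.0044). Slco3a1, a broadly expressed relative, was at 195, 152, 165, 159.9 and 134 CPM in wild type, at 200.3, 246, 203, 243 and 197 CPM with saline, and at 239.7, 337 and 379 CPM with atrasentan. Saline libraries 2 and 4 lay just above the lowest atrasentan library. Slco3a1 rose by 0.57 ± 0.12 (edgeR adjusted p = 0.00193). The endothelial markers rose by a median log2 fold change of 0.42 in the same comparison (7 of 10 called), with summed levels of 9382 to 12280.5 CPM with saline and 13321 to 17642 CPM with atrasentan, and their part in the rise of both carriers was not tested.

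The 7 carriers that were not called against saline were Slc3a2, Slc7a5, Slc7a8, Slc38a2, Slc7a13, Slco4c1 and Slc22a23. Slc3a2 was at 274, 324, 299, 313 and 268 CPM in wild type, at 491, 333, 417, 267 and 357 CPM with saline, and at 258, 314 and 352 CPM with atrasentan (lowest, median and highest). Its levels overlapped in every pair of groups, and it was called in none (log2 fold change 0.34 ± 0.13 with saline against wild type, edgeR adjusted p = 0.150). Slc7a8, its light chain for neutral amino acids, was at 122, 141, 136, 186 and 120.2 CPM in wild type, at 256, 145, 247, 94.5 and 171 CPM with saline, and at 75.2, 124 and 186 CPM with atrasentan. Slc7a5, another light chain, used by many cells for large neutral amino acids, lay between 3.40 and 8.82 CPM in all 17 libraries. Slc38a2, which supplies small neutral amino acids to most cells, was at 146, 131, 134, 169 and 138 CPM in wild type, at 147, 197, 163, 204 and 192 CPM with saline, and at 143, 188 and 306 CPM with atrasentan (lowest, median and highest). All 3 groups of Slc38a2 overlapped.

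**Figure D3:**
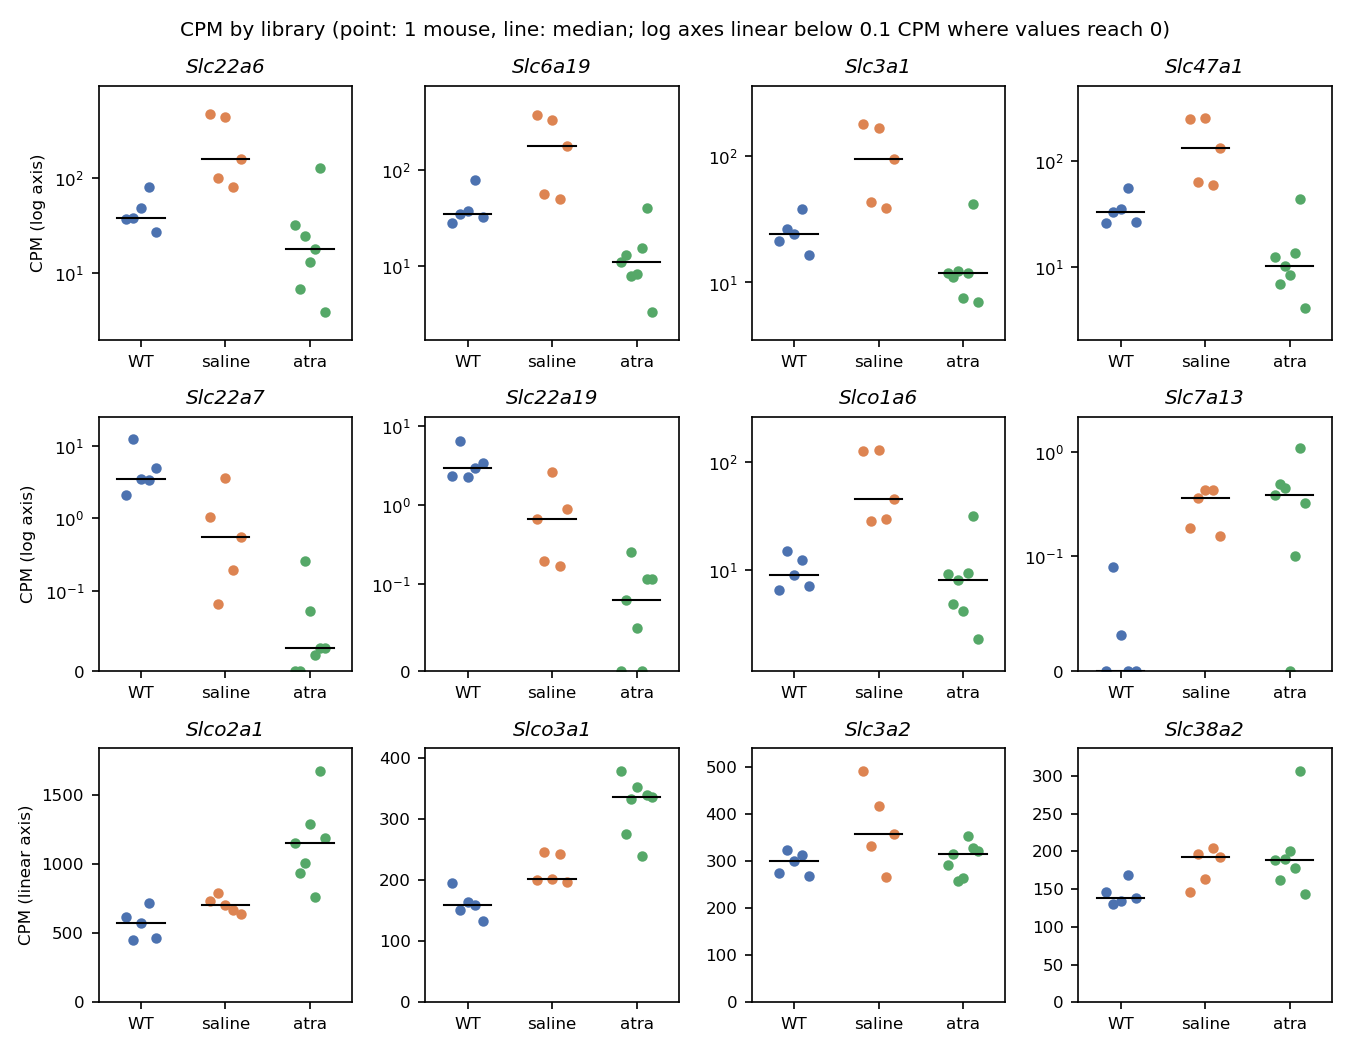
CPM of 12 carriers in each library (point: 1 mouse; line: median of the group), on log axes in the upper rows and on linear axes from 0 in the bottom row. Slc22a6, Slc6a19, Slc3a1 and Slc47a1 are highest in saline libraries, Slc22a7 and Slc22a19 in wild type libraries, and Slco2a1 and Slco3a1 in atrasentan libraries.

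Comparing atrasentan-treated ob/ob mice with wild type mice, which uses the libraries of both comparisons before, 11 carriers fell, 4 rose and 31 were not called. Of all genes tested, 29.2% were called, 14.5% lower and 14.7% higher. The median log2 fold change was -0.89 over the carriers and -0.01 over all genes. Of the 46 carriers tested, 4 were lower without overlap and 2 higher, close to the 7.06% and 6.16% of all genes. The share of carriers called in either direction was also close to that of all genes. The proximal tubule markers had a median log2 fold change of -1.07, with 8 of 18 lower and none higher. All 12 podocyte markers fell (median -1.93), and 5 of 10 endothelial, 4 of 8 mesangial and 6 of 7 macrophage markers rose, whose part in the values of the carriers was not tested. Leaving out 1 library at a time gave 9 to 30 calls: 9 without wild type library 2 or 4, and 30 without atrasentan library 6, the one with the most tubule marker RNA of its group. By side, 6 of 20 apical carriers fell and 1 rose, 2 of 13 basolateral carriers fell, and of those without an assigned side 3 fell and 3 rose.

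The greatest falls were in Slc22a7 and Slc22a19, apical organic anion carriers that are known to be higher in female than in male mouse kidney. All 17 libraries were of female type, with Xist at 22.2 to 65.3 CPM and at most 5 reads on any of 4 Y-linked genes. Slc22a7 was at 2.13, 12.5, 3.51, 3.44 and 4.95 CPM in wild type, at 1.05, 0.0838, 3.58, 0.193 and 0.546 CPM with saline, and at 0, 0.0285 and 0.255 CPM with atrasentan (lowest, median and highest). Slc22a19 was at 2.30, 6.51, 2.24, 2.92 and 3.42 CPM in wild type, at 0.657, 0.196, 2.64, 0.168 and 0.884 CPM with saline, and at 0, 0.0817 and 0.255 CPM with atrasentan. In both genes every atrasentan library lay below every wild type library. With saline only library 3 reached the wild type range. The mean of the tubule markers was at 6.50 to 8.60 log2 CPM in saline and 5.99 to 6.81 in wild type libraries. The part of tubule content in the values of both genes was not tested. The 7 atrasentan libraries held 15 reads of Slc22a7 and 22 of Slc22a19 in all, against 904 and 603 in the 5 wild type libraries.

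Slc22a7 fell by 6.48 ± 0.92 on the log2 scale from wild type to atrasentan (edgeR adjusted p = 9.88e-05) and by 4.19 ± 0.91 from saline to atrasentan (adjusted p = 0.00248). Its log2 fold change from wild type to saline, -2.29 ± 0.81, was not called (adjusted p = 0.103). Slc22a19 fell by 5.31 ± 0.76 from wild type to atrasentan (edgeR adjusted p = 9.95e-05) and by 3.37 ± 0.75 from saline to atrasentan (adjusted p = 0.00287), and its value from wild type to saline was -1.94 ± 0.71 (adjusted p = 0.112). These fitted values depend on the prior count where libraries hold few reads. Slc22a29 was at 1.48, 3.20, 2.91, 4.59 and 2.86 CPM in wild type, at 7.54, 2.07, 8.63, 2.02 and 7.09 CPM with saline, and at 0.0544, 0.375 and 0.657 CPM with atrasentan. It fell by 3.13 ± 0.49 from wild type to atrasentan, without overlap (edgeR adjusted p = 0.000185). Its neighbours Slc22a28 and Slc22a30 were not called in this comparison (-1.36 ± 0.55 and -0.46 ± 0.66).

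Carriers of amino acids made up 6 of the 11 that were lower with atrasentan than in wild type. Slc7a7 fell by 1.26 ± 0.40 without overlap (26.4 to 59.1 CPM in wild type, 6.54, 14.96 and 26.3 CPM with atrasentan, edgeR adjusted p = 0.0264). Slc7a9 fell by 1.80 ± 0.51 (edgeR adjusted p = 0.0136), whereas the value of its heavy chain Slc3a1 was -0.78 ± 0.44 (adjusted p = 0.199). The difference between the 2 chains was not tested. Slc6a19 fell by 1.58 ± 0.55 and Slc6a20b, an apical carrier of proline and other imino acids, by 1.63 ± 0.56 (edgeR adjusted p = 0.0381 and 0.0377). Slc6a18, an apical carrier of glycine and alanine beside Slc6a19 on the chromosome, fell by 1.81 ± 0.64 (edgeR adjusted p = 0.0414), from 15.1, 44.8, 28.2, 30.2 and 23.9 CPM to a lowest, median and highest of 1.47, 4.74 and 29.9 CPM. Slc7a12, a neutral amino acid carrier known to be higher in female mouse kidney, was at 0.576, 5.64, 1.55, 1.19 and 3.77 CPM in wild type, at 2.57, 0.643, 5.17, 1.47 and 1.40 CPM with saline and at 0.175, 0.589 and 1.61 CPM with atrasentan. It fell by 1.88 ± 0.60 (edgeR adjusted p = 0.0246). Outside the amino acid carriers, Slc22a18 and Slc16a1, the lactate carrier, fell by 1.33 ± 0.45 and 1.54 ± 0.42. The calls of Slc6a18, Slc6a19 and Slc7a12 were lost without 1 library in 10, 9 and 2 of 17 cases, with values down to -1.23 for Slc6a19 without wild type library 4 (edgeR adjusted p = 0.124).

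Higher with atrasentan than in wild type were Slco2a1 (1.02 ± 0.17, edgeR adjusted p = 0.000265), Slco3a1 (1.00 ± 0.12, adjusted p = 2.63e-05), Slc38a2 (0.45 ± 0.15, adjusted p = 0.0328) and Slc7a13. Slco2a1 and Slco3a1 did not overlap between these groups. The call of Slc38a2 was lost without 1 library in 4 of 17 cases, to an edgeR adjusted p of up to 0.0782. Slc7a13, an apical aspartate and glutamate carrier of the straight proximal tubule that is known to be higher in male mouse kidney, had 4 reads in all over the wild type libraries (0, 0.0905, 0.0316, 0 and 0 CPM). It was at 0.184, 0.363, 0.426, 0.433 and 0.156 CPM with saline, and at 0, 0.384 and 1.08 CPM with atrasentan, of which library 4 had no read. Its log2 fold change against wild type was 3.93 ± 0.98 with atrasentan (edgeR adjusted p = 0.00636) and 3.58 ± 1.02 with saline (adjusted p = 0.0502), fitted values that depend on the prior count. Slco4c1, a basolateral carrier of uremic anions, was as sparse, with 15 reads over the wild type libraries, 116 over the saline libraries and 148 over the atrasentan libraries.

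To set the carriers beside the tubule marker RNA of each library, the level of a carrier was also taken relative to the mean of the 18 markers. This is log2 CPM minus that mean. The mean, which also served as a covariate, includes Kap and Cyp4b1. Against wild type Kap had log2 fold changes of -3.00 with saline and -4.27 with atrasentan. Those of Cyp4b1 were -0.005 and 0.07. What a mean without these genes would give was not tested. Relative levels of Slc3a1 were -1.77 ± 0.22 in wild type, -1.17 ± 0.12 with saline and -1.44 ± 0.30 with atrasentan (mean ± SD, n = 5, 5 and 7). Those of Slc22a8 were -0.09 ± 0.32, 0.36 ± 0.08 and -0.44 ± 0.55. Relative levels of Slc22a7 were -4.23 ± 0.87, -8.31 ± 1.05 and -8.51 ± 1.13, and those of Slc22a19 were -4.67 ± 0.58, -8.26 ± 0.83 and -8.13 ± 1.19. In these 2 genes saline and atrasentan libraries lay close together and apart from wild type, with values at the lower end set partly by the prior count.

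With the marker mean as a covariate in the edgeR fit, few carriers were called between the ob/ob groups or between saline and wild type. In saline against wild type Slco1a6 rose (1.03 ± 0.20, edgeR adjusted p = 0.0341) and Slc22a7 fell (-4.91 ± 1.03, adjusted p = 0.0475), while 0.366% of all genes were called. In atrasentan against saline no carrier was called (edgeR), 5 had an unadjusted p under 0.05, and the median over the carriers was 0.11, while 0.253% of all genes were called. Against wild type, with 22.2% of all genes called, 9 carriers rose with atrasentan and 3 fell. Those that fell were Slc22a7 (-4.52 ± 0.97, edgeR adjusted p = 0.00354), Slc22a19 (-3.98 ± 0.88, adjusted p = 0.00421) and Slc22a29 (-1.91 ± 0.46, adjusted p = 0.00769). Those that rose were Slco1a6 (1.32 ± 0.20, adjusted p = 0.00034), Slco2a1, Slco3a1, Slco4c1, Slc22a12, Slc22a23, Slc7a13, Slc38a2 and Slc38a3. The marker mean itself differed between the groups, so part of a group difference is taken up by it, and fewer tubule cells and lower expression of markers and carriers together cannot be told apart in this fit either.

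**Figure D4:**
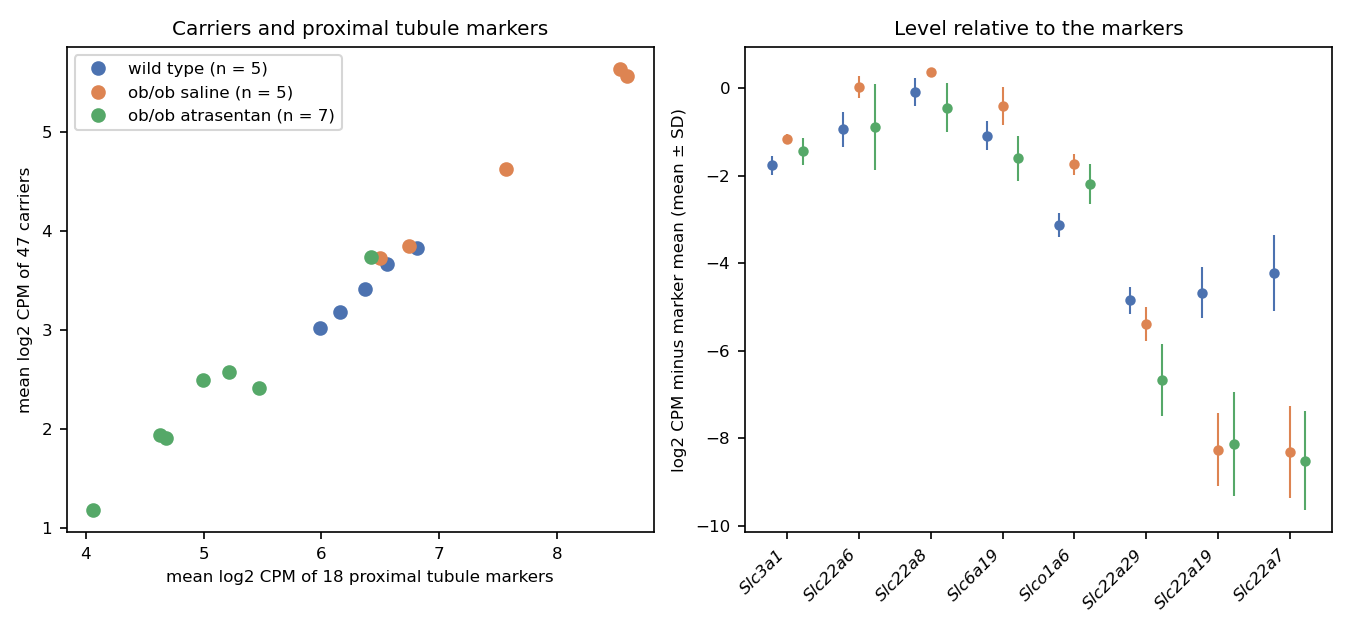
Left: mean log2 CPM of the 47 carriers against that of 18 proximal tubule markers, 1 point per library, with saline libraries 1 and 3 at the upper right and atrasentan library 7 at the lower left. Right: level relative to the marker mean (mean ± SD by group, same colours) of 8 carriers, of which Slc22a7 and Slc22a19 lie at -4.23 and -4.67 in wild type and below -8 in both ob/ob groups.

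Related genes were read out by lists chosen with results of these data known. Of 77 other members of the same carrier families 58 were tested. In saline against wild type 6 rose and none fell, in atrasentan against saline 5 rose and 25 fell, and in atrasentan against wild type 10 rose and 8 fell. Over all genes tested, 3.21% rose and 1.91% fell in the first comparison and 15.3% and 18.5% in the second. In the third 14.7% rose and 14.5% fell, and the counts of these relatives were close to those shares. Slc17a4, a relative of Slc17a1 and Slc17a3, was at 1.07 ± 0.415 CPM in wild type, 4.63 ± 3.63 with saline and 0.380 ± 0.465 with atrasentan (mean ± SD), and fell by 3.61 ± 0.74 from saline to atrasentan (edgeR adjusted p = 0.00167). Slco2b1, an anion carrier, was at 1.62 ± 0.380, 6.66 ± 3.50 and 12.8 ± 9.10 CPM and rose by 2.98 ± 0.47 from wild type to atrasentan (edgeR adjusted p = 0.000226).

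Of 12 partner and scaffold proteins, 3 rose with saline against wild type, and 9 fell and 1 rose with atrasentan against saline. Over all genes tested, 3.21% rose and 1.91% fell with saline, and 18.5% fell and 15.3% rose with atrasentan against saline. The same shares stand beside the counts of the lists that follow. Cltrn (collectrin), which brings Slc6a18 and Slc6a19 to the apical membrane, was at 142 CPM in wild type, 436 with saline and 61.4 with atrasentan, and fell by 2.83 ± 0.43 from saline to atrasentan (edgeR adjusted p = 0.000293). Pdzk1, an apical scaffold that binds several of these carriers, rose by 2.19 ± 0.53 with saline (edgeR adjusted p = 0.0281) and fell by 3.03 ± 0.48 with atrasentan (adjusted p = 0.000351). Among the 5 apical efflux pumps, Abcc2, which exports conjugated anions, fell by 3.59 ± 0.63 from saline to atrasentan, while Abcb1a, which exports lipophilic drugs and is also known from endothelium, rose by 0.99 ± 0.25 (edgeR adjusted p = 0.000644 and 0.00661). Of 8 tested tubule transcription factors, 4 rose with saline and none fell, and 5 fell with atrasentan against saline and none rose. Hnf4a, which is also 1 of the 18 markers, was at 24.5, 114 and 11.9 CPM in wild type, saline and atrasentan. It fell by 3.26 ± 0.51 from saline to atrasentan (edgeR adjusted p = 0.000315). Of 10 genes of the amino acid response driven by ATF4, 3 rose with saline against wild type and 4 fell with atrasentan against saline, with medians of 0.25 and 0.09. Those that rose were Sesn2, Shmt2 and Phgdh, and the same genes and Psat1 fell. Atf4 itself was called in neither comparison (log2 fold changes -0.02 and 0.20).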

How the data were processed

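Messenger RNA of glomeruli-enriched kidney cortex was selected by poly(A), prepared with TruSeq RNA v2, an unstranded kit, and sequenced single-end, per the labels' protocols. The authors deposited raw counts per gene for 17 mice. Named in the submitters' processing notes, without roles or versions, are the build GRCm38 and the tools STAR, HTSeq, limma, edgeR and DESeq2. Which annotation release and strand setting were used is not stated by the labels. Reads of overlapping antisense genes cannot be told apart. The last 5 lines of the count table name no gene and were left out. They hold reads with several alignments (23.4% to 31.8% of a library's reads), outside genes (3.17% to 8.58%) and on more than 1 gene (2.93% to 3.37%). Reads outside genes were 3.17% to 5.65% with atrasentan, 5.95% to 8.17% with saline and 6.26% to 8.58% in wild type. Genes with a read numbered 21396 to 23081, 24335 to 25313 and 23901 to 24877 in these groups. The part of this difference in the fold changes was not tested. The authors also deposited normalized log2 values of 17338 genes, 46 of the carriers among them; how they were transformed is not stated by the labels, and they served as an alternative only.

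Gene symbols, lengths and coordinates (1-based) came from GENCODE M21 (GRCm38); 53274 IDs had a symbol, 50604 of them matched with their version. The test was that of edgeR 4.0.16 (R 4.3.3, filterByExpr with a minimum count of 10, TMM factors 0.892 to 1.15, glmQLFit and glmQLFTest, all 17 libraries in 1 fit, two-sided), with p-values adjusted by Benjamini-Hochberg over 17766 genes. The biological coefficient of variation was 0.312. The scripts were tested on simulated data. SE is the log2 fold change divided by the square root of F. CPM uses TMM-scaled library sizes, log2 CPM a prior count of 2. Alternatives were DESeq2 1.42.0, upper-quartile scaling, limma-voom (limma 3.58.1), no filter, 2 groups only, the marker mean as a covariate, leaving out libraries, and limma on the deposited log2 values. Depth limits the members with few reads.

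Groups came from the labels, which give 1 batch and no replicate numbers; numbers here follow the order of deposit and only name libraries. The saline and wild type genotype labels end in d30, which the atrasentan label (BTBR ob) lacks; its meaning is not explained. No pair of libraries of a group agreed within sampling noise (chi-square per degree of freedom 26.5 to 275 over 41 pairs). Libraries are from separate mice. Values are given in every library, or as the lowest, median and highest of the 7 atrasentan libraries. This holds in each comparison for up to 6 called carriers with the largest change in each direction. It also holds for called carriers that went against the majority, and for 12 carriers standing for transport steps. Named genes of other lists are called genes, at most 4 a list, with Cyp4b1 and Atf4 as the exceptions. The members and lists were chosen with earlier results of these data known. Sides and substrates were assigned from general knowledge.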

Additional observations from a re-analysis of the deposited data

Results flagged for a closer look

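In 6 of 138 groups of libraries tested (a carrier in 1 group of 5 or 7 mice), 1 library lay far from the others, with a gap to its nearest neighbour above the 95% critical share of the group's range. Chance alone flags about 1 in 20 groups.

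Atrasentan library 6, which also held the most proximal tubule marker RNA of its group, was the highest in 3 of them. Slc22a2 was at 4.15 log2 CPM there against 2.46 in the next library, Slc22a5 at 5.89 against 4.92, and Slc3a1 at 5.38 against 3.62. Without this library the calls numbered 41 for atrasentan against saline and 30 for atrasentan against wild type.

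In wild type mice Slc6a19 was at 6.30 log2 CPM in library 4, with the next library at 5.22. Slc38a3 was at -1.55 in library 1, with the next lowest at 0.37, and Slc16a14 was at 0.071 in the same library, with the next lowest at 1.94. Saline against wild type gave 8 calls without wild type library 4 and none without wild type library 1, where 35 carriers had an unadjusted p under 0.05 (edgeR). The part of tubule content in these 6 values was not tested.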

How the results depend on the processing

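No paired analysis was possible because the labels give no replicate numbers. In saline against wild type, where 15 carriers were called, DESeq2 called 30, limma-voom 9, the fit of the 2 groups alone 30, and the fit with the tubule marker mean as a covariate 2; without saline libraries 1 and 3 the count was 0, and single libraries left out gave 0 to 27. The direction of the calls turned without saline library 3, but this rests on the only carrier called there (Slc22a7, which fell). In that fit 36 carriers had an unadjusted p under 0.05 (edgeR). None of the 10 carriers named in saline against wild type changed sign with a single library left out. In atrasentan against saline the count of 39 became 0 with the marker covariate and 34 to 42 with single libraries left out. In atrasentan against wild type the count of 15 became 23 with the deposited log2 values, 12 with the marker covariate, where more rose (9) than fell (3), and 9 to 30 with single libraries left out. Other settings kept each count within 1.5 times, and the cause of the moves was not tested. With the marker covariate 29 of the 46 carriers were positive in atrasentan against saline, against 4 without it. Among the 14 carriers named in that comparison, 4 changed sign, to 0.39 (Slc22a7), 0.23 (Slc22a2), 0.59 (Slc22a6) and 0.28 (Slc13a3), none of them called. Leaving out some single library ended the call of 10 of 10 carriers named in saline against wild type, 0 of 14 in atrasentan against saline and 4 of 11 in atrasentan against wild type. Depth limits Slco1a1, Slc7a13, Slco4c1, Slc22a7 and Slc22a19, which had few or no reads in at least 1 group.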
